A study of Homo sapiens with 8 samples.

Results

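The BCL2 family decides whether the outer membrane of the mitochondrion stays intact. Its messenger RNAs were followed here through 10 genes, which were the genes of the deposited expression tables whose Ensembl identifiers map to the chosen symbols. All 10 were found among 58302 genes. They were 5 genes of BH3-only proteins (BBC3, PMAIP1, BCL2L11, BMF and BIK), 2 of effectors (BAX and BAK1) and 3 of pro-survival proteins (BCL2, BCL2L1 and MCL1).

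BH3-only proteins sense stress: they bind the pro-survival members in a groove on their surface, and some also activate the effectors directly. Freed or activated BAX and BAK1 assemble into pores through which cytochrome c leaves the mitochondrion and switches on the caspases. BBC3 encodes PUMA and PMAIP1 encodes NOXA, whereas BCL2L11 encodes BIM and BCL2L1 encodes BCL-XL. Much of the control of this family acts on protein stability, phosphorylation and binding, which RNA levels do not show.

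Poly(A)-selected RNA was sequenced from SK-Hep1, an established human cell line from a liver tumour that is often called endothelial-like. The cells were either mock control cells or cells expressing SLC29A2 ectopically, which encodes an equilibrative nucleoside transporter. Both kinds of cell received sorafenib, dipyridamole, the combination or a control treatment, which made 8 conditions of 1 library each. Sorafenib inhibits RAF and several receptor tyrosine kinases, and dipyridamole blocks nucleoside transporters and phosphodiesterases. The control treatment is the reading given here to descriptions that name no drug. The sources used here do not give doses, treatment times, the promoter behind SLC29A2 or whether the expressing cells were a clone or a pool. The study's design text sets the drug profiles of SLC29A2-expressing cells against those of mock cells, so the comparisons below are of each drug, of both together and of the 2 kinds of cell.

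Levels are in FPKM, which scales fragments by gene length and library size, so they can be compared between genes, within the limits of the length used. The libraries held 14.07 to 16.69 M reads, and SLC29A2 was at 7.11 to 7.81 FPKM in the 4 control-cell libraries against 1477 to 3040 FPKM in the 4 others. Non-coding genes took 2.48% and 2.68% of reads in the control-cell libraries given dipyridamole alone and with sorafenib, against 1.60% to 1.93% in the other 6. Mitochondrial genes took 1.88% and 2.25% of reads in the 2 libraries given both drugs, against 3.04% to 5.74% in the other 6. Of 8 hepatocyte markers only SERPINA1 reached a mean of 1 FPKM, of 6 endothelial markers only ENG, of 5 leukocyte markers only CD14, and of 5 epithelial markers KRT8, KRT18 and KRT19. APOB, TTR and CD3E were listed at 0 in every library, and ALB, PECAM1 and CDH5 were at or near 0, so the defining markers of hepatocytes and of endothelium were absent or nearly so. The summed epithelial markers were at 733 to 1075 FPKM with dipyridamole against 2019 to 2781 FPKM without it. With sorafenib the summed hepatocyte markers were at 3.71 to 5.64 FPKM against 1.75 to 2.38 FPKM without it, and the leukocyte markers at 2.28 to 3.33 FPKM against 0.36 to 1.68 FPKM. The hepatocyte sum was nearly all SERPINA1, at 1.73 to 5.64 FPKM, and no other listed hepatocyte marker exceeded 0.131 FPKM. The part of these differences in the results below was not tested, and in bulk RNA fewer cells of a type and less RNA per cell cannot be told apart.

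The start regions of BBC3 and BCL2L1 are shown because these were the members that passed the test with sorafenib and also the test with dipyridamole. The windows run from 250 bases before to 50 after a gene start in RefSeq on GRCh38.p14, 5′ to 3′ on the gene's own strand, and capitals mark a motif match. BBC3 has 1 window, on the minus strand at chr19:47232618-47232917, and BCL2L1 has 2, also on the minus strand, at chr20:31723914-31724213 and chr20:31722819-31723118.
BBC3: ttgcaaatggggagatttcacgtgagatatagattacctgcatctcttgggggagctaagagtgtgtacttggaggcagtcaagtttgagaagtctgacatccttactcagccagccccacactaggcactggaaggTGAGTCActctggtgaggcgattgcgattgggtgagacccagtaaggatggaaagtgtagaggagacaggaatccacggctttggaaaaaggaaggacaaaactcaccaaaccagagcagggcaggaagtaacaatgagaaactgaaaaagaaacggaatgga
BCL2L1 upstream start: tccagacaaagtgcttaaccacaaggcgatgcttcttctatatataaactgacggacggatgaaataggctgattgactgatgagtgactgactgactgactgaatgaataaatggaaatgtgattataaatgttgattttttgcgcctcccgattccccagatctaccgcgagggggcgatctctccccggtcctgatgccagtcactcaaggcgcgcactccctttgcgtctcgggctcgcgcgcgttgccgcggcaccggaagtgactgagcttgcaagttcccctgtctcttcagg
BCL2L1 downstream start: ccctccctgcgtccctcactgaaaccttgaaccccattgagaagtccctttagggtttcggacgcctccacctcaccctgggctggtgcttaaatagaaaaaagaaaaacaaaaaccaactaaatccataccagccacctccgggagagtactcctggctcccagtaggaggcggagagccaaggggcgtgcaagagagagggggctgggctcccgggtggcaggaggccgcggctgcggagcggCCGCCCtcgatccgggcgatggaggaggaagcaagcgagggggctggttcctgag
The capitals in BBC3 are an AP-1 motif (TGANTCA, either strand) at position -113 from the start, and 7.71% of 35116 RefSeq windows of this length hold one. In the downstream BCL2L1 window they are a GC box (GGGCGG, either strand) at position -5, held by 45% of windows, and the upstream window has no match. The other motifs searched on both strands were the cyclic AMP response element TGACGTCA, the C/EBP-ATF composite TGANGCAA, the FOXO site GTAAACA, the STAT site TTCNNNGAA and the NF-kB site. The C/EBP-ATF composite was in none of the 10 windows of the 8 members that RefSeq's table matched, against 3.22% of all windows. A match describes letters and is not a bound site, and no match says only that these letters are not in the window.

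The members spanned a wide range of levels, and BAX, the cytosolic effector, stood highest with a median of 270 FPKM over the 8 libraries. MCL1, a short-lived pro-survival protein, followed at a median of 117 FPKM, BCL2L1 at 62.7, BBC3 at 30.7, BAK1 at 14.4 and PMAIP1 at 13.7 FPKM. BCL2, the founding member, was low at 2.37 FPKM, as were BCL2L11 at 1.59, BIK at 0.937 and BMF at 0.651 FPKM. Between neighbours in this order, the ranges over the libraries did not overlap for BAX and MCL1 or for PMAIP1 and BCL2, and they overlapped for all the others. The distance between levels depends on the length used. With the union of exons as the length, chosen after seeing the data, the medians were 73.2 FPKM for BAX and 65.4 FPKM for MCL1, and their ranges overlapped. On that length BIK, at 0.937 FPKM, stood above BCL2 at 0.819 and BCL2L11 at 0.501 FPKM. FPKM at gene level also joins splice forms with opposite roles, such as the long and short forms of BCL2L1.

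**Figure D1:**
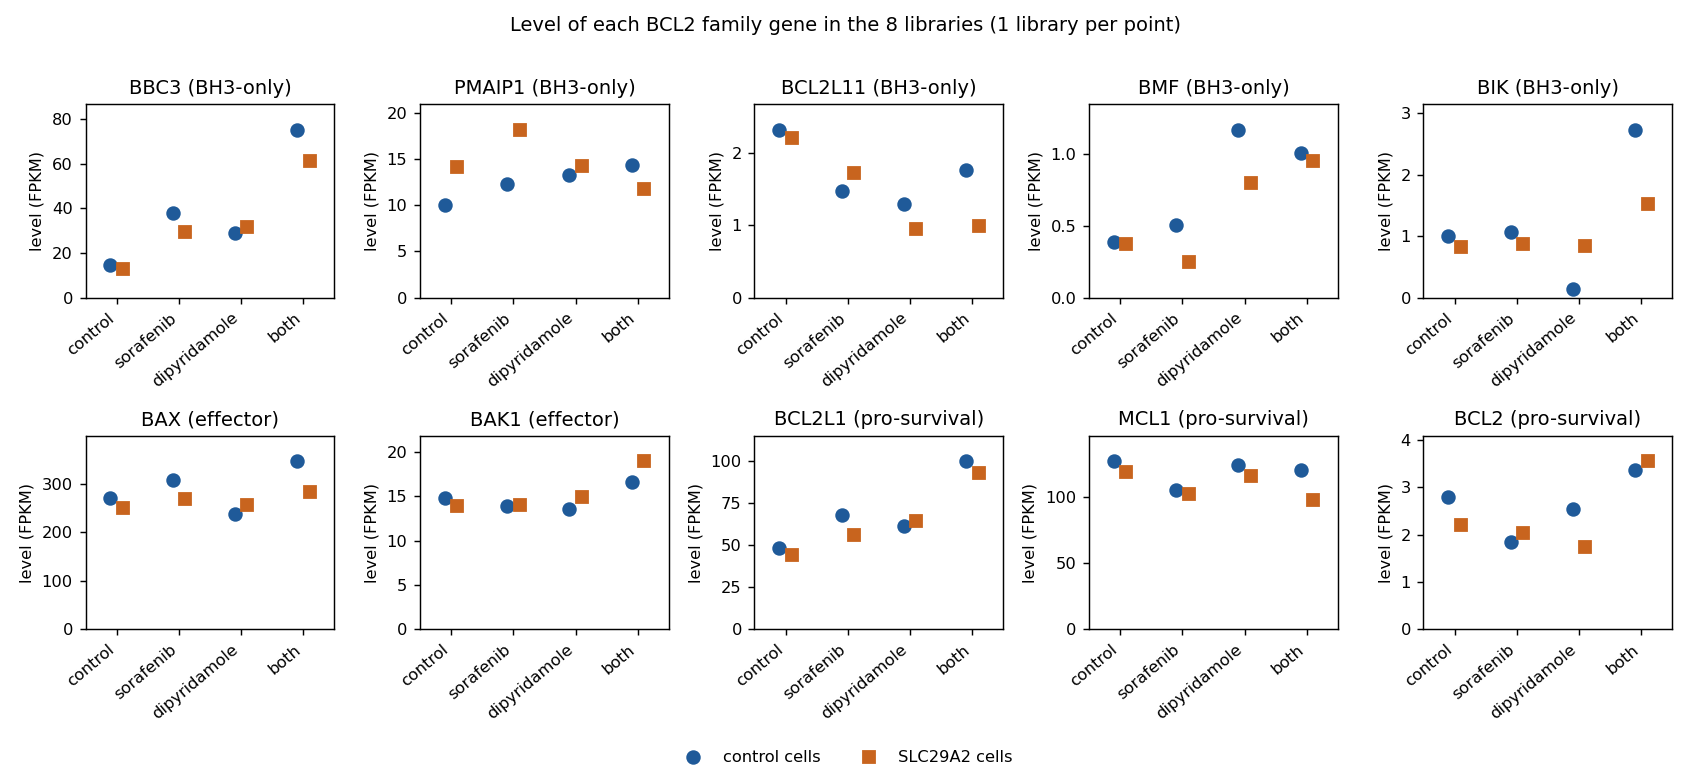
FPKM of each of the 10 members (linear axis from 0, 1 panel per gene) by treatment, with 1 point per library, circles for control cells and squares for SLC29A2 cells. BBC3 and BCL2L1 are lowest with the control treatment and highest with both drugs, while MCL1 stays between 97.6 and 126.8 FPKM.

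Sorafenib and dipyridamole each raised BBC3 and BCL2L1 and no other tested member. But the sorafenib call of BCL2L1 was lost in 6 of 8 refits that left out 1 library, and those 6 called fewer genes over all. BBC3, a promoter of cell death, was about 1.92 to 2.60 times higher with sorafenib and 1.99 to 2.44 times higher with dipyridamole over the 4 library pairs that differed in that drug alone. BCL2L1, which opposes death, moved less, by 1.27 to 1.63 times with sorafenib and 1.26 to 1.66 times with dipyridamole. BAX, BAK1, PMAIP1, BCL2L11, BIK, BCL2 and MCL1 did not pass the test with either drug. The test was a limma model on log2(FPKM + 1) with cell type, sorafenib and dipyridamole as factors, over 13899 genes whose mean reached 1 FPKM, 9 members among them. Adjusted p-values are by Benjamini-Hochberg over all those genes. Since no condition was replicated, they measure only the spread between these 8 libraries, and the error term also holds any interaction of the factors.

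The count of 2 of 9 tested members called with sorafenib stands beside 8.11% of all tested genes called in either direction, 5.94% higher and 2.17% lower. Leaving out any of 6 single libraries lowered that count to 1 of 9. Those 6 refits called 272 to 609 of 13899 genes with sorafenib, against 1127 in the main fit. With dipyridamole the same 2 of 9 stand beside 30.0% called in either direction, 17.5% higher and 12.6% lower, so the members' share with dipyridamole is near the background. Genes called higher in the sorafenib difference and also in the dipyridamole difference numbered 472 of 13899, or 3.4%. In undivided FPKM, the groups with and without sorafenib overlapped for every tested member, while they did not for 7.98% of all tested genes. The groups with and without dipyridamole also overlapped for every tested member, and did not for 24.8% of all tested genes. Divided by size factors, the sorafenib groups of MCL1 and the dipyridamole groups of BCL2L11 did not overlap. The share of all genes with such groups after division is not given here. The median member differed by 0.13 on the log2 scale with sorafenib and 0.12 with dipyridamole, close to the medians of 0.09 and 0.07 over all tested genes. Dividing the libraries by size factors moved the all-gene medians to -0.02 and -0.01. Of 120 member differences between single libraries that differed in 1 factor, 6 were at least 2-fold on the log2(FPKM + 1) scale, 5 of them in BBC3 and 1 in BIK.

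**Figure D2:**
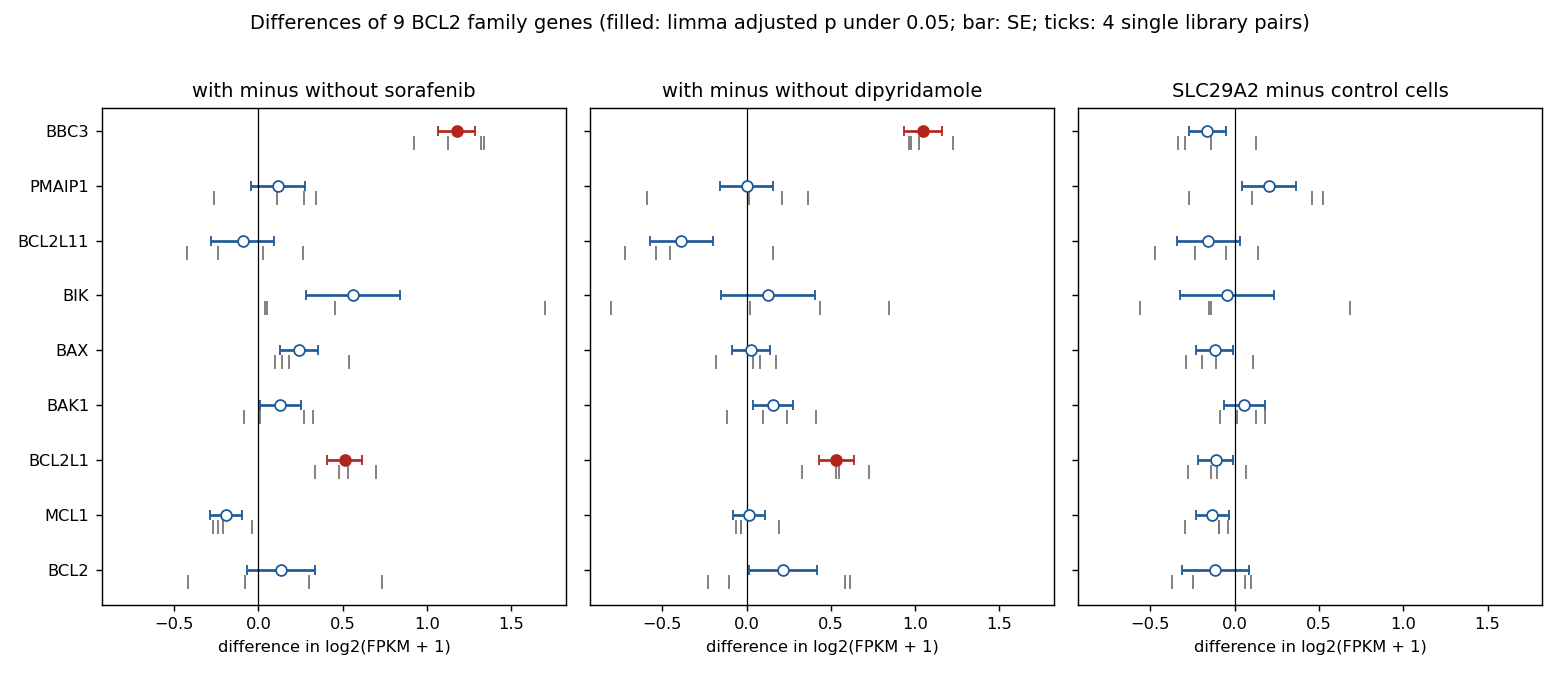
Fitted difference in log2(FPKM + 1) of the 9 tested members for sorafenib, dipyridamole and cell type, with bars for the standard error, filled points for limma adjusted p below 0.05 and ticks for the 4 single library pairs. BBC3 and BCL2L1 are filled with each drug and no member is filled between the kinds of cell.

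BBC3 (ENSG00000105327, chr19:47220822-47232766, minus strand in GENCODE 29 on GRCh38, as for the genes that follow) was the only tested BH3-only gene called with either drug. In control cells it was at 14.5 FPKM with the control treatment, 37.7 with sorafenib, 29.2 with dipyridamole and 75.3 FPKM with both drugs. In SLC29A2 cells it was at 13.1, 29.6, 31.9 and 61.2 FPKM in the same order. The control treatment was lowest and both drugs highest in each kind of cell, with the single drugs between them. The libraries with both drugs also had the lowest mitochondrial share of reads, whose part in the BBC3 and BCL2L1 levels was not tested. Grouped by 1 drug the libraries overlapped, because the other drug alone reached the same levels. The values rest on 308 to 1727 reads per library. BBC3 rose by 1.18 ± 0.11 (SE, log2) with sorafenib at an adjusted p of 0.0025, and by 1.05 ± 0.11 with dipyridamole at an adjusted p of 3.1e-04, both higher in 4 of 4 pairs.

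With both drugs BBC3 was 5.19 times its control-treatment level in control cells and 4.69 times in SLC29A2 cells. The products of the single-drug folds were 5.24 and 5.53. The interaction of the drugs was -0.09 ± 0.21 on the log2 scale, with a 95% interval of -0.59 to 0.40, so a departure from multiplied single-drug folds was not detectable within that interval. Divided by size factors, the both-drug levels of BBC3 were 62.9 FPKM in control cells and 60.2 FPKM in SLC29A2 cells, with the control-cell library having the highest factor, 1.20. BBC3 kept both calls in every alternative run, with sorafenib differences of 1.06 to 1.26 and dipyridamole differences of 0.95 to 1.12. The microRNA genes MIR3190 and MIR3191 overlap BBC3 and were listed at 0.

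PMAIP1 (ENSG00000141682, chr18:59899948-59904306, plus strand), whose product NOXA binds MCL1, did not follow BBC3. It was at 10.03, 12.3, 13.2 and 14.4 FPKM in control cells with the control treatment, sorafenib, dipyridamole and both drugs, and at 14.1, 18.2, 14.3 and 11.7 FPKM in SLC29A2 cells. Its highest value was sorafenib alone in SLC29A2 cells, and the drug groups overlapped. The differences were 0.12 ± 0.16 with sorafenib and -0.00032 with dipyridamole on the log2 scale.

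BCL2L11 (ENSG00000153094, chr2:111119378-111168447, plus strand), whose product BIM binds all pro-survival members, was highest with the control treatment in both kinds of cell. It was at 2.32 FPKM there in control cells, then 1.47 with sorafenib, 1.29 with dipyridamole and 1.75 FPKM with both. In SLC29A2 cells it was at 2.20, 1.71, 0.943 and 0.984 FPKM in the same order. The libraries held only 32 to 81 reads of it, and the groups with and without dipyridamole overlapped. The dipyridamole difference of -0.39 ± 0.19 did not pass, at an adjusted p of 0.15, and the sorafenib difference was -0.09 ± 0.19. Divided by size factors, BCL2L11 was at 0.967 to 1.466 FPKM with dipyridamole and at 1.487 to 2.464 FPKM without it, so these groups no longer overlapped. The dipyridamole difference was then -0.45 and did not pass in the limma fit, at an adjusted p of 0.072. MIR4435-2HG lies on the opposite strand and shares 727 exon bases with BCL2L11. It was at 28.2 to 50.9 FPKM, and without stated strand information reads in the shared bases cannot be assigned.

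BMF (ENSG00000104081, chr15:40087890-40108892, minus strand), a BH3-only gene linked to loss of attachment, had a mean of 0.68 FPKM and did not pass the filter. It was at 0.387, 0.505, 1.17 and 1.01 FPKM in control cells in the order control treatment, sorafenib, dipyridamole and both drugs, and at 0.373, 0.247, 0.797 and 0.956 FPKM in SLC29A2 cells. All 4 libraries with dipyridamole, with 18 to 23 reads, lay above all 4 without it, with 5 to 11 reads. Such a complete separation upwards held for 7.38% of genes above 0 FPKM. Without the filter the difference was 0.52 ± 0.12 on the log2 scale at an adjusted p of 0.0449 by limma, and with sorafenib it was -0.00303 ± 0.12.

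BIK (ENSG00000100290, chr22:43110748-43129712, plus strand), which acts at the endoplasmic reticulum, was at the floor of precision. It was at 1.01, 1.08, 0.149 and 2.73 FPKM in control cells and 0.819, 0.869, 0.843 and 1.53 FPKM in SLC29A2 cells, in the same order of treatments. Both drugs together gave the highest value in each kind of cell, from 39 and 24 reads, and dipyridamole alone in control cells gave the lowest, from 2 reads. Neither the sorafenib difference of 0.56 ± 0.28, at an adjusted p of 0.235, nor the dipyridamole difference of 0.12 passed.

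The effectors varied little. BAX (ENSG00000087088, chr19:48954815-48961798, plus strand) was at 271, 307.6, 238.7 and 347.2 FPKM in control cells and 251, 269.1, 257.5 and 284.4 FPKM in SLC29A2 cells. Each library with sorafenib exceeded its partner without it, in 4 of 4 pairs, and the groups overlapped. The sorafenib difference of 0.24 ± 0.11 did not pass, at an adjusted p of 0.207, and dipyridamole gave 0.03. Divided by size factors, the both-drug levels of BAX were 290.2 FPKM in control cells and 279.7 FPKM in SLC29A2 cells. The latter was then below the 280.8 FPKM of SLC29A2 cells with dipyridamole alone, so that pair no longer rose with sorafenib.

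BAK1 (ENSG00000030110, chr6:33572547-33580293, minus strand), the effector that sits in the outer membrane, was at 14.8, 13.9, 13.6 and 16.6 FPKM in control cells and 13.9, 14.03, 14.9 and 19.0 FPKM in SLC29A2 cells. Both drugs together gave its highest value in each kind of cell. Divided by size factors, BAK1 in control cells was highest with the control treatment, at 15.8 FPKM against 13.9 FPKM with both drugs. In SLC29A2 cells both drugs stayed highest, at 18.7 FPKM. The differences were 0.13 ± 0.12 with sorafenib and 0.16 with dipyridamole, and neither passed. Reads of BAK1 can be shared with its copies BAK1P1, at 0 to 0.377 FPKM, and BAK1P2, listed at 0.

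Among the pro-survival genes only BCL2L1 (ENSG00000171552, chr20:31664452-31723989, minus strand) was called. It was at 48.6 FPKM with the control treatment in control cells, 68.1 with sorafenib, 61.3 with dipyridamole and 100.05 FPKM with both drugs. In SLC29A2 cells it was at 44.1, 56.0, 64.2 and 93.1 FPKM in the same order. As with BBC3, the control treatment was lowest and both drugs highest, and grouping by 1 drug left the libraries overlapping. BCL2L1 rose by 0.53 ± 0.10 with dipyridamole at an adjusted p of 0.00537, a call kept in all alternatives run, with differences of 0.44 to 0.63.

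BCL2L1 also rose with sorafenib, by 0.51 ± 0.10 at an adjusted p of 0.0231, but that call was lost when any of 6 libraries was left out. It was kept without the control-cell control-treatment library, at an adjusted p of 0.0377, and without the SLC29A2-cell sorafenib library, at 0.0238. Leaving out each of the other 6 gave adjusted p-values of 0.0561 to 0.0834 and differences of 0.44 to 0.53. Those 6 refits called 272 to 609 genes with sorafenib over all, against 843 and 914 in the 2 that kept the call. The call also ended with no filter, with size factors, where the difference was 0.39, and without both control-cell dipyridamole libraries. BCL2L1 was higher with sorafenib in 4 of 4 pairs. With both drugs BCL2L1 was 2.06 times its control-treatment level in control cells and 2.11 times in SLC29A2 cells, against products of the single-drug folds of 1.77 and 1.85. The interaction was 0.21 ± 0.18 with a 95% interval of -0.22 to 0.63. ABALON, on the opposite strand, shares 1424 exon bases with BCL2L1 and was at 1.40 to 2.63 FPKM from 40 to 77 reads, far below BCL2L1.

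MCL1 (ENSG00000143384, chr1:150574551-150579738, minus strand) was at 126.8, 105.1, 123.7 and 120.2 FPKM in control cells and 118.6, 102.2, 115.7 and 97.6 FPKM in SLC29A2 cells. It was lower with sorafenib in 4 of 4 pairs, and the difference of -0.19 ± 0.10 did not pass, at an adjusted p of 0.24. With dipyridamole the difference was 0.01. Divided by size factors, MCL1 was at 96.0 to 106.5 FPKM with sorafenib and at 121.0 to 134.9 FPKM without it, so these groups did not overlap. The sorafenib difference was then -0.31 and did not pass in the limma fit, at an adjusted p of 0.0978.

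BCL2 (ENSG00000171791, chr18:63123346-63320128, minus strand) was at 2.80, 1.85, 2.54 and 3.35 FPKM in control cells and 2.21, 2.04, 1.73 and 3.55 FPKM in SLC29A2 cells. Both drugs together gave its highest value in each kind of cell, while each drug alone gave less than the control treatment. Divided by size factors, BCL2 in control cells was at 2.98 FPKM with the control treatment and 2.80 FPKM with both drugs. In SLC29A2 cells it was then at 2.30 and 3.49 FPKM. The interaction of the drugs was 0.77 ± 0.30 with an unadjusted p of 0.0359 in the limma fit, and it did not pass after adjustment, at 0.345. The main differences were 0.13 ± 0.20 with sorafenib and 0.22 ± 0.20 with dipyridamole.

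Ectopic SLC29A2 moved no member past the test. None of 9 members was called between the kinds of cell by limma, beside 0.00719% of all tested genes, and limma's voom on recovered reads called none. No member had an unadjusted p below 0.05, beside 546 of 13899 tested genes. BBC3 differed by -0.16 ± 0.11, PMAIP1 by 0.20 ± 0.16 and BCL2L1 by -0.11 on the log2 scale. The response to each drug was also compared between the kinds of cell. The interaction of cell type with sorafenib called no member, beside 0% of all genes. No member had an unadjusted p below 0.05 there, beside 100 of 13899 genes. The interaction of cell type with dipyridamole called none either, beside 0% of all genes. Only PMAIP1 had an unadjusted p below 0.05 there, beside 2756 of 13899 genes. Its limma estimate was -0.58 ± 0.24, with p 0.0481 and an adjusted p of 0.248. The interaction of the drugs called none, beside 0.0863% of all genes (0.0288% higher and 0.0576% lower). BCL2 was the only member with an unadjusted p below 0.05 there, beside 1839 of 13899 genes. Voom called none in any of the 3 interactions.

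The makeup of each role followed these values. BBC3 made up 51.3% of the summed BH3-only FPKM with the control treatment and 79.1% with both drugs in control cells, and 42.7% and 80.1% in SLC29A2 cells. The ratio of BBC3 to the summed pro-survival FPKM went from 0.0813 to 0.337 in control cells and from 0.0792 to 0.315 in SLC29A2 cells. Within the pro-survival genes, the ratio of BCL2L1 to MCL1 went from 0.383 to 0.832 and from 0.372 to 0.953. These ratios are of RNA, have no replicate and were not tested.

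**Figure D3:**
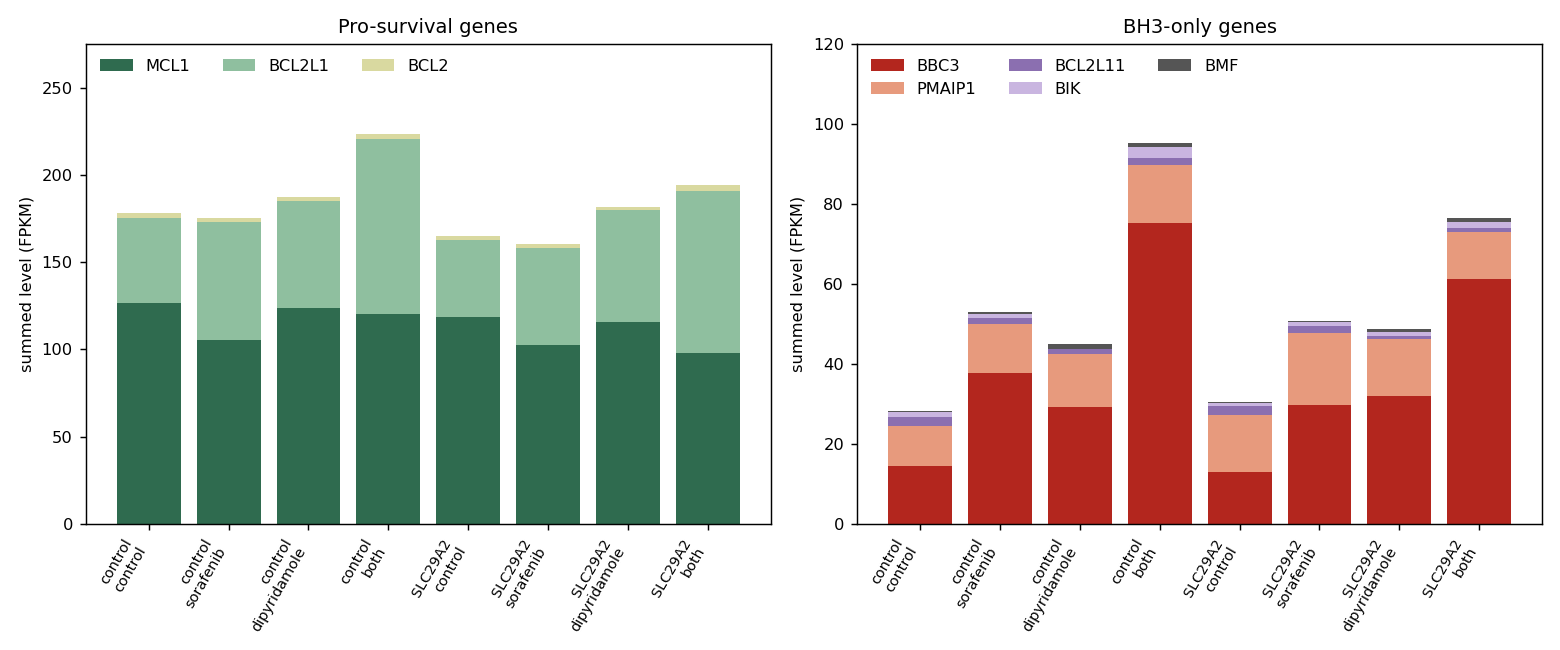
Stacked FPKM of the pro-survival genes (left) and the BH3-only genes (right), with 1 bar per library, named by cells and then treatment. The BBC3 and BCL2L1 segments are shortest with the control treatment and tallest with both drugs in each kind of cell, while MCL1 stays between 97.6 and 126.8 FPKM.

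The genes whose levels moved most like BBC3 over the 8 libraries were ABLIM3, PPM1H and PRPH, among 11637 protein-coding genes. Likeness was the root mean square difference of log2(FPKM + 1) after each gene was centred on its own mean, and was 0.0953 for ABLIM3, 0.186 for PPM1H and 0.187 for PRPH. For BCL2L1 they were YPEL2 at 0.0381, PPCS at 0.0635 and HOXB9 at 0.0685. The likeness is a description over 8 libraries that share their conditions.

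**Figure D4:**
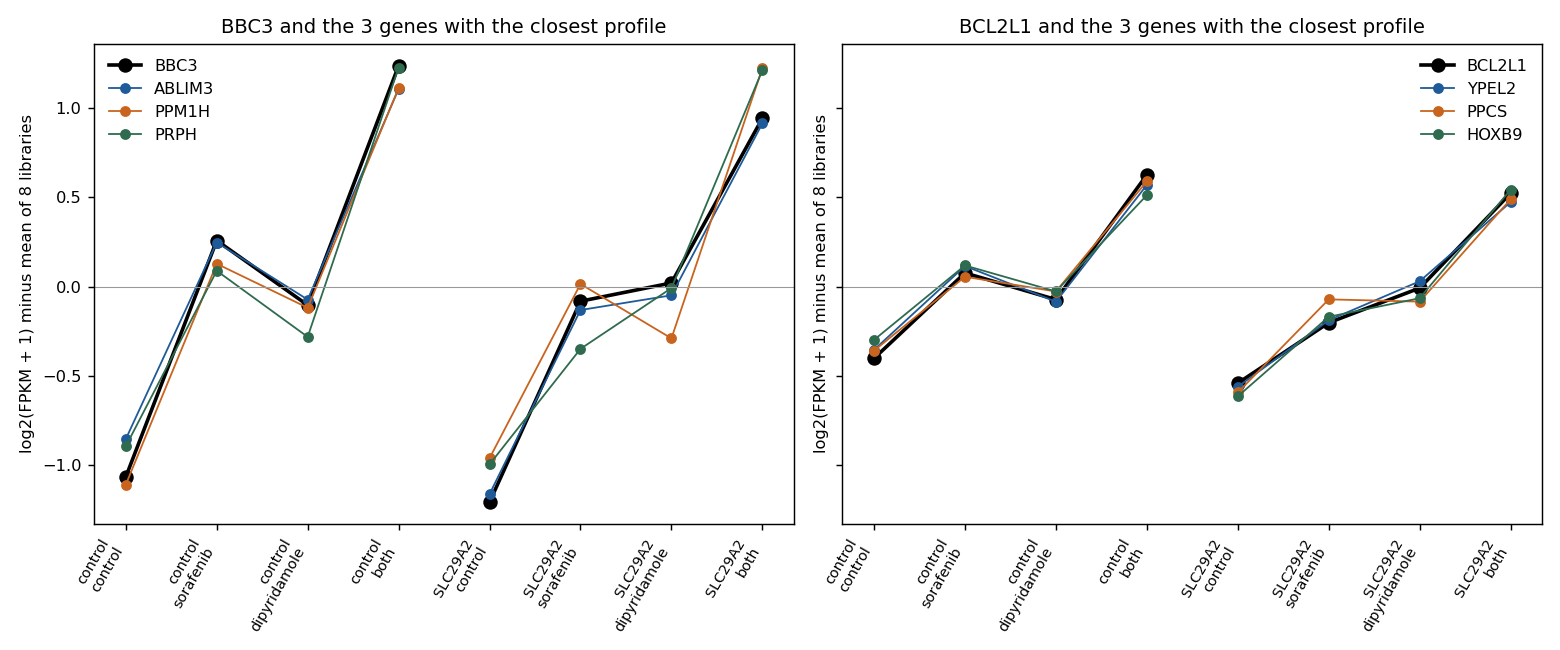
log2(FPKM + 1) minus the mean of the 8 libraries for BBC3 (left) and BCL2L1 (right) with the 3 genes most like each, 1 point per library, named by cells and then treatment, with lines joining the libraries of 1 kind of cell. Each gene is lowest with the control treatment and highest with both drugs in each kind of cell.

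The rest of the pathway was counted over 50 genes in 5 lists, of which 45 were tested. With sorafenib 7 of the 45 were called higher and 3 lower, with dipyridamole 10 higher and 5 lower, and between the kinds of cell none was called. Of all tested genes 5.94% were called higher and 2.17% lower with sorafenib, and 17.5% higher and 12.6% lower with dipyridamole, so the dipyridamole counts are near the background. The lists were chosen with earlier results of these data known, so their counts are descriptions.

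Transcription factors that act on BH3-only genes, and their partners, were counted as a list. With sorafenib 4 of 11 tested were called higher, beside 5.94% of all tested genes, and 1 lower, beside 2.17%. Leaving out 1 library gave 0 to 4 higher and 0 to 1 lower, and leaving out both control-cell dipyridamole libraries gave 2 and 1. With dipyridamole 6 were called higher, beside 17.5% of all tested genes, and 2 lower, beside 12.6%. Leaving out 1 library gave 3 to 6 higher and 1 to 2 lower, and leaving out both libraries gave 4 and 1. Their median differences were 0.45 and 0.39, beside 0.09 and 0.07 over all genes. DDIT3, the CHOP factor of the stress response, rose by 1.90 ± 0.15 with dipyridamole at an adjusted p of 7.9e-05 and by 0.63 ± 0.15 with sorafenib at 0.0366. TRIB3, a pseudokinase induced in the same response, rose by 1.79 ± 0.19 and 1.09 ± 0.19. ATF3 rose by 1.39 ± 0.26 with dipyridamole. E2F1, a cell cycle factor, fell by 1.40 with dipyridamole and by 0.61 with sorafenib. The dipyridamole calls of these genes were kept when any 1 library was left out. The sorafenib call of DDIT3 was lost in 5 of 8 such refits, of E2F1 in 3 and of TRIB3 in 1. Without both control-cell dipyridamole libraries the dipyridamole call of ATF3 ended, at an adjusted p of 0.0743, as did the sorafenib call of DDIT3, at 0.131.

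Downstream of the mitochondrion, calls were often lost when libraries were left out. Of 15 genes of mitochondrial release and caspases, CASP9 rose by 0.55 ± 0.13 and CASP10 by 0.60 ± 0.15 with sorafenib, and each of these calls was lost in 8 of 8 refits that left out 1 library. With dipyridamole HTRA2, a protease released from mitochondria, rose by 0.62 ± 0.15 and APAF1, the scaffold of the apoptosome, fell by 0.46. The APAF1 call was lost in 6 of 8 refits, and without both control-cell dipyridamole libraries, at 0.188, and that of HTRA2 in 2. Of 5 inhibitors of apoptosis, BIRC5, which encodes survivin, fell by 1.41 with dipyridamole at an adjusted p of 0.00268, kept in 8 of 8 refits and lost without both control-cell dipyridamole libraries, at 0.0708. XIAP rose by 0.68 ± 0.20, a call lost in 5 of 8 refits and without both libraries, at 0.281. None of the 5 was called with sorafenib.

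Of 12 other family members and BH3 genes 8 were tested. BNIP3L, a mitophagy receptor, fell by 0.68 with sorafenib at an adjusted p of 0.015. With dipyridamole BCL2L13 rose by 0.57 ± 0.11 at an adjusted p of 0.00621 and BCL2L12 fell by 0.54 at 0.0188. Leaving out 1 library ended the BCL2L12 call in 2 of 8 refits and the BNIP3L call in 1, that without the SLC29A2-cell dipyridamole library, at an adjusted p of 0.0607. Without both control-cell dipyridamole libraries the BCL2L12 call also ended, at 0.114. Of 6 genes that set the turnover of MCL1 protein, FBXW7, the substrate receptor of a ubiquitin ligase, rose by 0.73 ± 0.16 with dipyridamole at an adjusted p of 0.00953, a call that ended without both control-cell dipyridamole libraries, at 0.0537. USP9X, a deubiquitinase, rose by 0.38 ± 0.10 with sorafenib at 0.0498, a call lost in 8 of 8 refits.

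**Figure D5:**
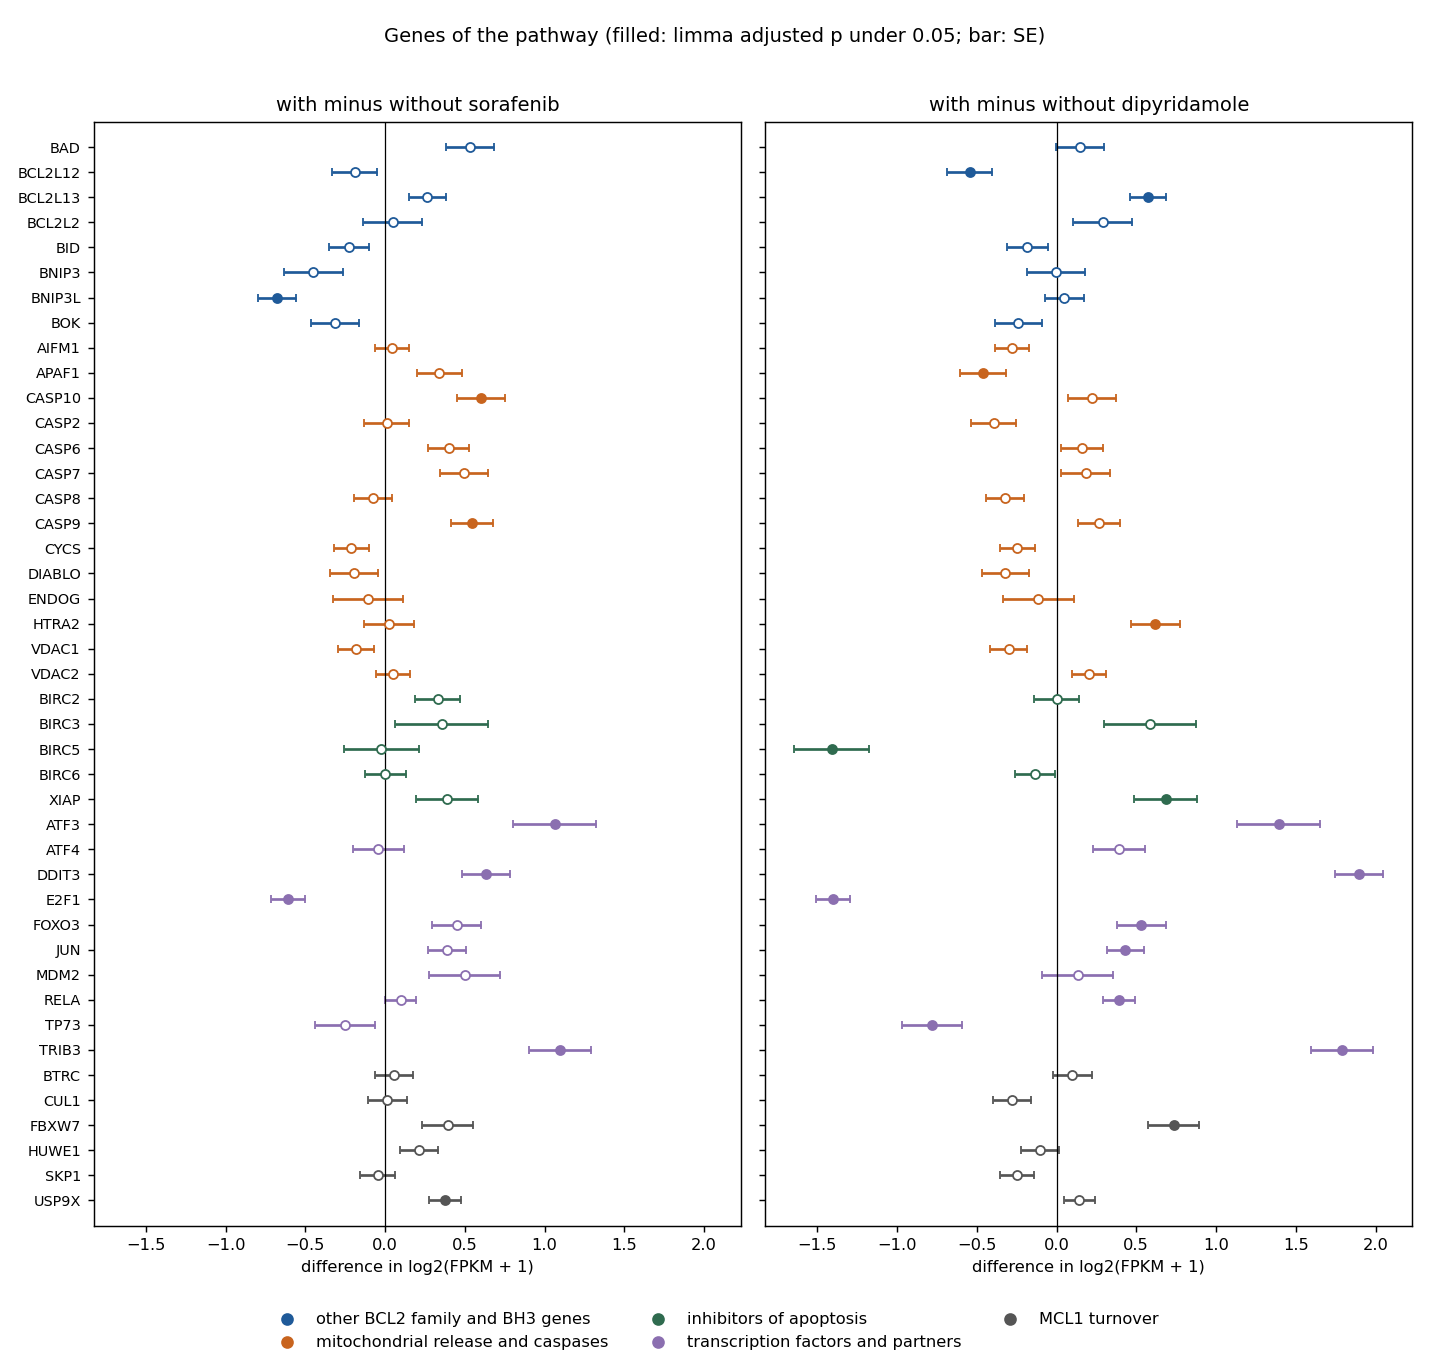
Fitted difference in log2(FPKM + 1) of 43 pathway genes with sorafenib (left) and dipyridamole (right), coloured by list, with bars for the standard error and filled points for limma adjusted p below 0.05. With dipyridamole DDIT3 and TRIB3 lie farthest to the right, and BIRC5 and E2F1 farthest to the left.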

How the data were processed

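Poly(A) RNA was selected and prepared with NEBNext Ultra reagents, per the labels' protocols. The deposited values are FPKM for 58302 genes in each library. Per the submitters' processing notes the build was GRCh38.p12 and the tools included HTSeq 0.6.1, TopHat2 2.0 and edgeR, with roles not stated, and strand is not given in the sources used here. Symbols came from GENCODE 29, which matched 58039 genes. Genes whose mean reached 1 FPKM were kept, values were taken as log2(FPKM + 1), which understates the change of low genes, and limma 3.58.1 in R 4.3.3 was fitted with a mean-variance trend and an additive model of 3 factors, two-sided, with Benjamini-Hochberg adjustment over 13899 genes at 0.05. Each interaction was added singly. Reads were recovered from FPKM and gene length, with 91.1% of values whole at a tolerance of 0.01, and served voom as an alternative. Scripts were tested on simulated data. All 10 members were named, along with up to 4 called genes per pathway list and drug, taken by smallest adjusted p, and the 3 genes most like each of BBC3 and BCL2L1. The members and lists were chosen with earlier results of these data known. Alternatives were a pseudocount of 0.1, no filter, size factors, voom, no variance trend, all pairwise interactions, and leaving out 1 library or both control-cell dipyridamole libraries. Protein sequences were not used here, and the values of some pathway genes are not reported here.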

Additional observations from a re-analysis of the deposited data

How the results depend on the processing

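The sorafenib count of 2 members became 1 with no filter, with size factors and without both control-cell dipyridamole libraries, and was 1 to 2 when 1 library was left out. BAX passed with sorafenib when all pairwise interactions were in the model, at an adjusted p of 0.0389. Without both control-cell dipyridamole libraries the interaction of the drugs rested on 1 library with both drugs and 1 with dipyridamole alone. PMAIP1 and BCL2 went from not called to called there, in opposite directions. The share of all genes called there is not given here, so these calls cannot be set against a background. The interaction of cell type with dipyridamole could then not be fitted. The 6 single-pair differences of at least 2-fold became 13 with a pseudocount of 0.1. Over all 13899 tested genes the sorafenib and dipyridamole calls numbered 1127 and 4173, against 4839 and 7411 with all pairwise interactions. With no filter they were 136 and 2622 of 31551 genes. Sorafenib calls over all genes numbered 929 with size factors and 301 without both control-cell dipyridamole libraries. They numbered 272 to 914 when 1 library was left out. Members that were not called changed sign as follows. With a pseudocount of 0.1, PMAIP1 gave 0.0014 and BIK -0.024 with dipyridamole, and BIK 0.14 for cell type. With size factors, BAX gave -0.068 and MCL1 -0.081 with dipyridamole, and BIK 0.010 for cell type. Without both libraries, MCL1 gave -0.051 with dipyridamole, and BCL2L11 0.043 and BAK1 -0.038 for cell type. Leaving out 1 library gave ranges of -0.013 to 0.28 for PMAIP1, -0.23 to 0.041 for BCL2L11 and -0.025 to 0.28 for BCL2 with sorafenib. With dipyridamole they were -0.11 to 0.17 for PMAIP1, -0.13 to 0.43 for BIK, -0.039 to 0.11 for BAX and -0.040 to 0.043 for MCL1. For cell type they were -0.35 to 0.22 for BIK, -0.016 to 0.14 for BAK1 and -0.26 to 0.046 for BCL2. At 14.07 M reads or more, depth limits BIK, BMF and BCL2L11. No paired analysis was possible because the labels carry no replicate numbers that could serve as a block, and the additive model already matches libraries that differ in 1 factor.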
